A study of Mus musculus with 112 samples.

Results

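The lncRNAs described here are those that the deposited tables list for polyadenylated (polyA) RNA but neither for total RNA of the same SNRNP70 degron line nor for newly made RNA labelled with 4-thiouridine (SLAM-seq). They number 267 of the 1246 lncRNAs with a single entry in the polyA table, or 21.4%, and are called polyA-only lncRNAs below. The name refers to which table lists a gene, and does not mean that the RNA is missing from total RNA. What decided whether a table lists a lncRNA is not given in the sources used here. The genes were thus chosen by their listing, which may rest on a level measured in total or labelled RNA, so their levels are given as a description, with no test against other genes.

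The samples are mouse embryonic stem cells (ESCs) made from the 46C line, on a 129/Ola background, in which SNRNP70 carries an auxin-inducible degron (AID). The tested cells had 500 µM indole-3-acetic acid (IAA), the auxin that triggers degradation of the tagged protein, for 4 h. The cells they are set against carried the same tagged protein and had no IAA (0 h). PolyA RNA was read in 3 libraries each of 4 h chromatin, 0 h chromatin, 4 h whole cells and 0 h whole cells. Nothing in the labels ties the 3 libraries of a group to separate cultures, and p-values measure only how far these libraries spread, which may be technical. The tables hold lncRNAs alone, so the loss of SNRNP70 could not be checked in them.

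SNRNP70 is a protein of U1 snRNP, the particle that pairs with 5′ splice sites at the start of splicing. U1 snRNP is also known to hold back cleavage and polyadenylation at early sites within transcripts, and the series asks what it does for the retention of noncoding RNA on chromatin. A polyA-selected library reads RNA whose 3′ end has been cleaved and given an adenosine tail, and in the chromatin fraction such RNA has been processed at its end but not released. Bulk libraries cannot tell apart fewer cells that make an RNA and less RNA in each cell.

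The polyA-only lncRNAs were mostly gene models without a studied function. Of the 267, 193 had symbols of predicted genes (Gm followed by a number, 72.3% of them and 63.6% of the 979 other lncRNAs of the table), and 53 had symbols of RIKEN cDNA clones (ending in Rik, 19.9% and 22.7%). A further 8 were named as transcripts opposite a neighbouring gene (ending in os), 3 had names of sequenced clones (AA543186, AI504432, BC026762) and 6 had no symbol. The remaining 4 were Platr13, Flicr, the pseudogene Gpr137b-ps and D7Ertd128e. Platr13 is one of the pluripotency-associated transcripts found in ESCs. Flicr is a lncRNA that overlaps Foxp3 and is known to lower Foxp3 expression in regulatory T cells. Hosts of small nucleolar RNAs with Snhg symbols, 9 of which were tested among the other lncRNAs, were not among the 267.

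RefSeq (GRCm38.p6, the assembly that mm10 in the submitters' processing notes stands for) held 99 of the 267 by symbol, or 37.1%. RefSeq called 93 of the 99 lncRNA, 3 protein-coding, 2 transcribed pseudogenes and 1 a pseudogene. Tmem74bos and Trpc5os were among the 3 that RefSeq lists as protein-coding. With under 80% matched, a check of gene structure or promoter content over the whole set is void, and sequences are shown only for single genes. The promoters below (250 bases before the RefSeq start and 50 from the start on) belong to 4 genes picked by hand from the 20 named genes that RefSeq held. These are Gm13261 and Arhgap33os, which fell in both chromatin and whole cells, Gm20324, which fell on chromatin, and Dhrs13os, which rose in whole cells. Sequences are from RefSeq, 5′ to 3′ on the strand of the gene. Capitals mark GGTAAG or GGTGAG (found at 5′ splice sites), AATAAA or ATTAAA (polyA signals), TATAAA and CCAAT, on either strand.
Gm13261, chr2:10365112-10365411, minus strand: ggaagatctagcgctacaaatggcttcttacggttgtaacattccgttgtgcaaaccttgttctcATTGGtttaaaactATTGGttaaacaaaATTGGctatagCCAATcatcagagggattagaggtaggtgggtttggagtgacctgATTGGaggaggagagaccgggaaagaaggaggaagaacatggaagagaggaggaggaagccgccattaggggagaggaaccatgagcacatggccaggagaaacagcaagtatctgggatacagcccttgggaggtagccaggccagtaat
Arhgap33os, chr7:30514872-30515171, plus strand: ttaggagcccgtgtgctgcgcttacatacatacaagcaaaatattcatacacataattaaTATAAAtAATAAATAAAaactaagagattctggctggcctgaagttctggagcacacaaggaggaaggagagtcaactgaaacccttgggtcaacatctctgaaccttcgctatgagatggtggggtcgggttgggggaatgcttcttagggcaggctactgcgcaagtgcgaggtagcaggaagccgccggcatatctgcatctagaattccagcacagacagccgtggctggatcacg
Gm20324, chr15:82898830-82899129, plus strand: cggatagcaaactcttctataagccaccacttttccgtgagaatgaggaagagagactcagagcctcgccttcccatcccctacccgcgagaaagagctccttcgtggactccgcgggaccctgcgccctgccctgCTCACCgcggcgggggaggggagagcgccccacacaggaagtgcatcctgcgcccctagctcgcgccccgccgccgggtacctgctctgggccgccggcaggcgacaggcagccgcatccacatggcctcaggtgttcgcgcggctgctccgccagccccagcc
Dhrs13os, chr11:78032616-78032915, minus strand: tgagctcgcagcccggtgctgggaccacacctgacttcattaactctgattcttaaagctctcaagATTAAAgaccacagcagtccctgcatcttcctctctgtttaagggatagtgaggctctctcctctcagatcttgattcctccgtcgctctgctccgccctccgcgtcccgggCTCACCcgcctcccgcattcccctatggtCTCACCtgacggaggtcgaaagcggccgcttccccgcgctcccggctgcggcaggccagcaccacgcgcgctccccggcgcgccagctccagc

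RefSeq lists 3 overlapping windows for Gm13261, of which the one furthest upstream is shown. It held CCAAT 5 times, 4 of them on the other strand as ATTGG, a number reached by 0.271% of the 32851 RefSeq promoters of the same length, and the other 2 Gm13261 windows, counted among them, held the same 5. The motif was present at least once, on either strand, in 37.4% of them. In the Arhgap33os window TATAAA stood 190 bases before the start, followed by 2 AATAAA that overlap each other by 2 bases. TATAAA was present in 13.6% of all promoters and a polyA signal in 28.2%. Gm20324 had GGTGAG once and Dhrs13os had it at 2 places, each time on the other strand as CTCACC, and GGTAAG or GGTGAG was present in 27.4% of all promoters. Dhrs13os also had 1 ATTAAA. A match is a description of these letters and not a used site.

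These 4 genes lie close to or across protein-coding genes. Gm20324 (chromosome 15, 82899080 to 82905816) overlaps Tcf20, a transcriptional coregulator gene on the other strand. Dhrs13os (chromosome 11, 78030006 to 78032665, minus strand) overlaps Phf12 and the dehydrogenase gene Dhrs13, both on the plus strand. Arhgap33os (chromosome 7, 30515122 to 30522193) lies 32 bases from Arhgap33, and Gm13261 (chromosome 2, 10327340 to 10365161) lies 5279 bases from the Polycomb-family gene Sfmbt2. Whether values count 1 strand is not given in the sources used here, so signal of overlapping genes cannot be told apart.

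Before and after IAA the polyA-only lncRNAs were low. Values are FPKM, fragments scaled by transcript length and by library size, and those of chromatin are further called spike-in normalized. Levels can thus be set side by side between genes of 1 group, while the scale may differ between chromatin and whole cells. The median polyA-only lncRNA had a mean of 0.263 FPKM in 4 h chromatin, 0.363 FPKM in 0 h chromatin, 0.163 FPKM in 4 h whole cells and 0.160 FPKM in 0 h whole cells. The median of the 979 other lncRNAs was 1.24 FPKM in 4 h chromatin, 1.84 FPKM in 0 h chromatin, 0.940 FPKM in 4 h whole cells and 0.887 FPKM in 0 h whole cells. In 0 h chromatin 39 of the 267 reached 1 FPKM (14.6%, against 66.2% of the others), and in 0 h whole cells 11 did (4.12%, against 46.3%). For 204 of the 267 the highest of the 12 libraries stayed under 1 FPKM, and 4 were under 0.1 FPKM in every library. The 32 lncRNAs listed for polyA and labelled RNA but not for total RNA, which the rule leaves out, lay near the polyA-only lncRNAs, with medians of 0.308 FPKM in 4 h chromatin, 0.483 FPKM in 0 h chromatin, 0.323 FPKM in 4 h whole cells and 0.212 FPKM in 0 h whole cells.

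**Figure D1:**
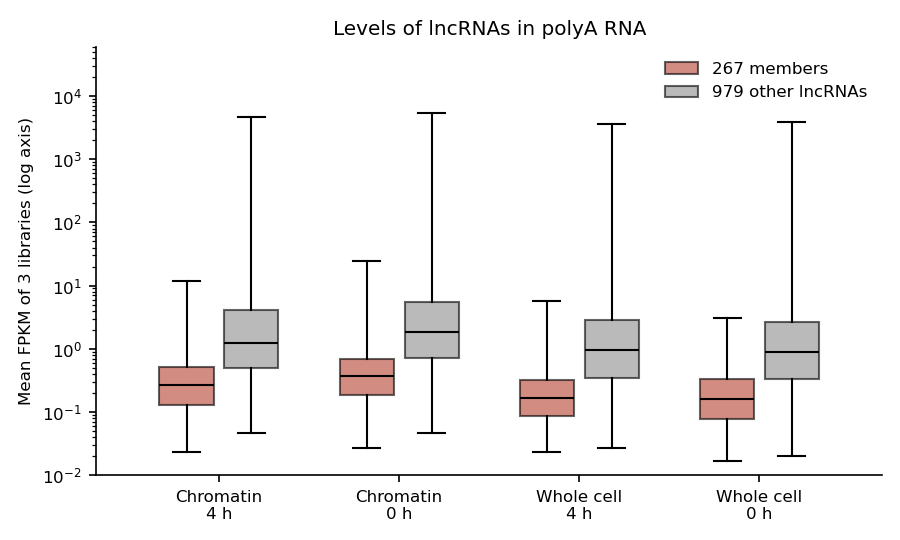
Mean FPKM over 3 libraries (log axis) of the 267 polyA-only lncRNAs (members, red) and the 979 other lncRNAs (grey) in the 4 groups of libraries. Boxes run from the first to the third quartile with the median as a line, and whiskers reach the lowest and highest gene. The medians of the red boxes lie between 0.160 and 0.363 FPKM, and those of the grey boxes between 0.887 and 1.84 FPKM.

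Replicate libraries spread more for these genes than for the rest. On the log2(FPKM + 0.1) scale used for every test, the median SD over 3 libraries was 0.313 in 4 h chromatin and 0.299 in 0 h chromatin for the polyA-only lncRNAs, and 0.225 in 4 h chromatin and 0.200 in 0 h chromatin for the others. In whole cells it was 0.293 at 4 h and 0.339 at 0 h for the polyA-only lncRNAs, and 0.260 at both times for the others. Pearson's r between libraries of 1 group, taken over the 267 polyA-only lncRNAs, was 0.837 to 0.912 in 4 h chromatin, 0.892 to 0.924 in 0 h chromatin, 0.796 to 0.838 in 4 h whole cells and 0.756 to 0.833 in 0 h whole cells. Over all lncRNAs it was 0.961 to 0.983 (genes are not independent, so r is a description), and no library stood apart. For a view of cell identity, 9 of 10 lncRNAs fixed as an ESC list (Lncenc1, Panct2, Snhg3, Tug1 and 5 Platr genes) were listed, at 1.68 to 149 FPKM in 0 h whole cells. Whether each is particular to ESCs was not tested, and Snhg3 and Tug1 had means of 54.3 and 42.3 FPKM there. Of 8 lncRNAs of differentiated cells, 5 were listed, at 0.323 to 23.7 FPKM. The summed level of the ESC list was 238 FPKM in 4 h chromatin and 429 FPKM in 0 h chromatin, and 308 FPKM in 4 h whole cells and 322 FPKM in 0 h whole cells. On chromatin 6 of the 9 fell by limma and none rose (Lncenc1, at a mean of 72.8 FPKM in 4 h chromatin and 213 FPKM in 0 h chromatin, Panct2, Platr4, Platr6, Platr7 and Platr14), and in whole cells Lncenc1, Platr4 and Platr6 fell and Snhg3 rose. The summed level of the differentiated list was 75.9 FPKM in 4 h chromatin and 86.4 FPKM in 0 h chromatin, and 38.7 FPKM in 4 h whole cells and 35.99 FPKM in 0 h whole cells, with 3 of its 5 lower and 1 higher on chromatin by the test and 1 higher in whole cells. The part of either list in the results below was not tested.

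A few polyA-only lncRNAs were well above the rest on chromatin. They were also among the 10 highest in 0 h whole cells, where Platr13 had the highest mean and levels fell off gradually. Gm37755 was the highest in 0 h chromatin, at 24.4, 25.2 and 22.7 FPKM, and had 10.9, 10.7 and 10.1 FPKM in the 4 h chromatin libraries. In 4 h chromatin its mean of 10.5 FPKM was below those of C230029F24Rik (11.9 FPKM) and Gm44256 (11.6 FPKM). Gm15726 had 10.2, 9.51 and 11.8 FPKM in 4 h chromatin and 14.5, 16.01 and 16.7 FPKM in 0 h chromatin. C230029F24Rik, a RIKEN clone on chromosome 1 (49244616 to 49340431), had 9.49, 8.60 and 17.6 FPKM in 4 h chromatin and 14.01, 11.5 and 15.9 FPKM in 0 h chromatin. The 4 h and 0 h libraries did not overlap for Gm37755 and Gm15726 and did for C230029F24Rik. Gm15247 and Gm44256 followed, with means of 13.98 ± 1.13 FPKM and 10.0 ± 1.37 FPKM in 0 h chromatin (SD, n = 3). After them came Gm14286, Gm45148, Gm26736, Platr13 and Gm37381, with means of 3.47 to 6.21 FPKM in 0 h chromatin, and 228 of the 267 had less than 1 FPKM there. In 0 h whole cells the 10 highest had means of 1.28 to 3.07 FPKM. They were Platr13, C230029F24Rik, Gm15247, Gm15726, Gm37755, Gm37381, Gm44256, Gm45148, Gm17092 and Gm15286, of which Gm17092 and Gm15286 were not among the 10 highest in 0 h chromatin.

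Where the RNA stood before IAA was read from chromatin against whole cells at 0 h. The chromatin values are scaled to spike-in RNA and no such scaling is named for whole cells, so the zero of this difference is set by scaling. On the authors' scale the mean was higher in chromatin for 233 of the 267 polyA-only lncRNAs and for 798 of the 979 others. In limma over all 12 libraries, with p-values adjusted over the whole table and a threshold of 0.05, 143 of 256 polyA-only lncRNAs tested were higher in chromatin and 12 lower, with a median log2 difference of 0.85. Over all lncRNAs tested 72.1% were called, 64.6% higher and 7.54% lower, and the median of the others was 1.20. A lncRNA could enter this test through chromatin libraries alone, and how many of the 143 did was not counted. Of the 267, 89 had a mean under 0.1 FPKM in 0 h whole cells and 20 in 0 h chromatin. Without a filter 147 of all 267 were higher in chromatin and 12 lower. With each library centred on its median the split became 38 higher and 50 lower, with a median of -0.13, so the direction of the set depends on the scaling used. Centring takes away each library's median over these lncRNAs. It would thus also remove a real difference shared by most of them, and cannot decide which scale is right. Among predicted genes 118 of 186 were higher in chromatin and 5 lower (median 0.97), and among RIKEN clones 17 of 51 higher and 6 lower (median 0.48). The other lncRNAs had the same order, with medians of 1.40 for predicted genes and 0.61 for RIKEN clones. Of them 476 of 623 predicted genes were higher in chromatin and 19 lower, and 105 of 221 RIKEN clones higher and 38 lower.

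Among the 40 polyA-only lncRNAs with at least 1 FPKM in chromatin or whole cells at 0 h, those furthest towards chromatin were Gm26736, Gm43167, Gm37755, Gm44256 and Gm43203. Gm26736 had 4.09, 3.53 and 3.65 FPKM in 0 h chromatin and 0.28, 0.34 and 0.20 FPKM in 0 h whole cells, a log2 difference of 3.38 ± 0.24 (SE, limma adjusted p = 6.7e-08). The other 4 had log2 differences of 2.52 to 3.19, with adjusted p of at most 0.00020, and all 5 remained past the threshold in every alternative run. Of the 5 furthest towards whole cells, Gm15286 passed with a log2 difference of -0.99 ± 0.30 (adjusted p = 0.011), with 0.53, 0.72 and 0.51 FPKM in 0 h chromatin and 0.96, 1.27 and 1.60 FPKM in 0 h whole cells. Gm17092 (-0.06 ± 0.39, adjusted p = 0.90), Platr13 (0.35 ± 0.78, adjusted p = 0.69) and 5830418P13Rik (0.49 ± 0.27, adjusted p = 0.12) did not pass. Gm16092 was on the chromatin side by 0.45 ± 0.19 (adjusted p = 0.048), and on the whole-cell side with libraries centred on their medians. Its call held only without chromatin 0 h library 3, whole-cell 0 h library 2 or 3, or whole-cell 4 h library 3 (adjusted p up to 0.19 without the others). Flicr was the lncRNA with a known role among the 12 lower in chromatin, at 0.02, 0.32 and 0.04 FPKM in 0 h chromatin and 0.40, 0.29 and 0.68 FPKM in 0 h whole cells (-1.48 ± 0.45, adjusted p = 0.0099). Its highest 0 h chromatin library lay within its whole-cell range, and the call was lost without chromatin 0 h library 1 (adjusted p = 0.0504). In RefSeq Flicr overlaps Foxp3 and Ppp1r3f, whose signal cannot be told apart from that of Flicr.

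After 4 h of IAA more polyA-only lncRNAs fell than rose on chromatin, as for lncRNAs at large. Of 242 tested, 56 fell and 9 rose by limma over the 6 chromatin libraries, and 177 did not pass. Over all 1217 lncRNAs tested 45.8% were called, 36.8% lower and 8.96% higher, against 23.1% and 3.72% of the polyA-only lncRNAs. The median log2 change was -0.37 for the polyA-only lncRNAs and -0.38 for the others, and both turned positive with libraries centred on their medians (0.11 over all lncRNAs tested), where 19 polyA-only lncRNAs rose and 25 fell. Centring would also remove a real fall shared by most lncRNAs, so it cannot tell such a fall from scaling. Without a filter on low values 57 fell and 10 rose of all 267. The filter admitted 7 of the 242 through 0 h libraries alone, 4 of which are among the 56. The 4 h libraries were all below the 0 h libraries for 86 of the 267 and all above for 11, where 43.1% of all lncRNAs were below and 10.6% above. Leaving out chromatin 0 h library 2 gave the fewest calls, 44 in place of 65, and leaving out chromatin 4 h library 3 the most, 68.

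Genes of higher level were called more often, though not at every step, and this was not tested. In bands of mean chromatin level, a reading added after the data had been seen, 16.7% of 84 tested polyA-only lncRNAs under 0.25 FPKM were called in either direction, 15.5% of 71 between 0.25 and 0.5 FPKM, 41.1% of 56 between 0.5 and 1 FPKM and 54.8% of 31 from 1 FPKM up. The other lncRNAs had 9.43%, 24.0%, 37.9% and 63.2% in the same bands. In whole cells 30.0% of the 10 polyA-only lncRNAs from 1 FPKM up were called, against 28.9% of 464 others, and 4.90% to 9.68% in the 3 lower bands, against 10.7% to 21.4% of the others. From 1 FPKM up the median log2 change on chromatin was -0.58 for the polyA-only lncRNAs and -0.40 for the others, a difference that was not tested.

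**Figure D2:**
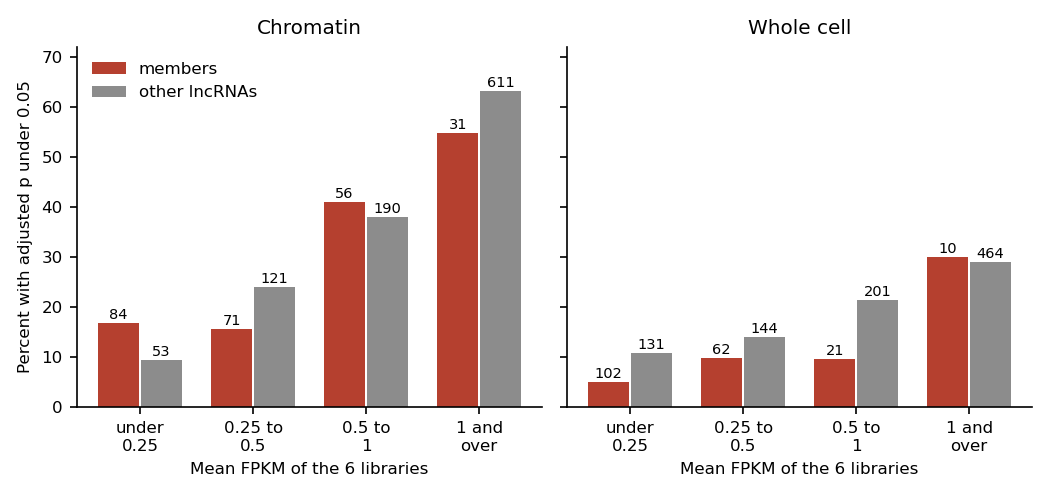
Percent of lncRNAs tested whose adjusted p was under 0.05 at 4 h against 0 h, in either direction, by mean FPKM of the 6 libraries compared, for polyA-only lncRNAs (members, red) and the other lncRNAs (grey). Numbers above the bars are lncRNAs tested. On chromatin the red bars reach 54.8% and the grey bars 63.2% from 1 FPKM up.

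The falls on chromatin ran from -0.58 to -3.06 on the log2 scale, with a median of -1.18. Gm14286, a predicted gene, fell most, to 0.54, 0.62 and 0.72 FPKM in 4 h chromatin, against 3.88, 6.87 and 7.87 FPKM in 0 h chromatin (-3.06 ± 0.27, SE, limma adjusted p = 9.2e-05). Its 4 h libraries were all far below its 0 h libraries. Gm10535 had 0.03, 0.20 and 0.44 FPKM in 4 h chromatin and 1.17, 1.64 and 1.00 FPKM in 0 h chromatin (-2.28 ± 0.49, adjusted p = 0.0069). Gm43203 had 1.19, 0.65 and 0.35 FPKM in 4 h chromatin and 2.86, 2.12 and 3.59 FPKM in 0 h chromatin (-1.93 ± 0.38, adjusted p = 0.0047). The groups did not overlap for either gene, though the 4 h libraries of Gm10535 spread widely.

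Gm37090, Gm20324, Gm26736 and B230317F23Rik fell by similar amounts, with log2 changes of -1.71 to -1.79 and adjusted p of at most 0.0016. Gm26736, the one furthest towards chromatin before IAA, was tight within each group, with 1.12, 1.05 and 1.03 FPKM in 4 h chromatin and 4.09, 3.53 and 3.65 FPKM in 0 h chromatin. Gm20324, whose promoter is shown above, had 0.44, 0.30 and 0.20 FPKM in 4 h chromatin and 1.06, 1.28 and 1.48 FPKM in 0 h chromatin. All 4 kept separate groups, and these calls held under every alternative in which they were tested. Gm15535 was called lower (-2.19 ± 0.63, adjusted p = 0.024) on 0.25, 0.11 and 0.14 FPKM in 4 h chromatin and 0.62, 0.55 and 3.49 FPKM in 0 h chromatin. One of its 0 h libraries was far above the other 2, and its call was lost without 4 h library 2 or 4 h library 3 (adjusted p up to 0.068).

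Among the highest polyA-only lncRNAs, Gm37755 fell by 1.18 ± 0.07 on the log2 scale (adjusted p = 2.3e-05), Gm15247 by 0.83 ± 0.11 (adjusted p = 0.00070), Gm45148 by 1.23 ± 0.21 (adjusted p = 0.0024) and Gm15726 by 0.58 ± 0.10 (adjusted p = 0.0028). Gm37381 was called lower (-1.15 ± 0.38, adjusted p = 0.042), a call lost without 0 h library 1, 0 h library 3, 4 h library 1 or 4 h library 2 (adjusted p up to 0.13). C230029F24Rik (-0.28 ± 0.26, adjusted p = 0.43) and Gm44256 (0.12 ± 0.30, adjusted p = 0.77) did not pass. Gm44256 had 16.3, 11.9 and 6.5 FPKM in 4 h chromatin and 9.50, 11.6 and 8.98 FPKM in 0 h chromatin, and its groups overlapped. With libraries centred on their medians 34 of the 65 chromatin calls remained. Among those lost were the calls of Gm15726, Gm15535, Gm37381, Gm37637, Gm43167, Arhgap33os, N4bp2os, AA543186, Gm42755 and 5830418P13Rik. Of the 56 falls, 35 were past the threshold without each of the 6 libraries in turn, wherever they were still tested. Gm26883, AA543186 and 9430064I24Rik, counted among the 35, were tested in only 3 of these runs. Leaving out a 0 h library took them below the filter, so their calls were not tested against the loss of one.

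**Figure D3:**
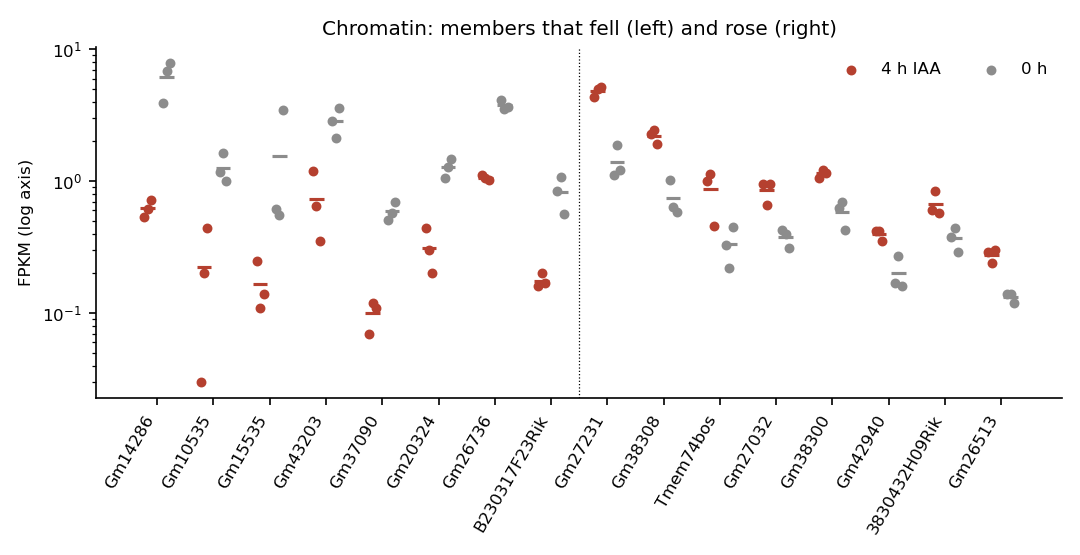
FPKM (log axis) in each chromatin library at 4 h of IAA (red) and at 0 h (grey) for the 8 polyA-only lncRNAs with the largest falls, left of the dotted line, and the 8 with the largest rises, right of it. Short bars are means of 3 libraries. Gm14286 lies between 0.54 and 0.72 FPKM at 4 h and between 3.88 and 7.87 FPKM at 0 h.

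The 9 rises on chromatin were smaller, with log2 changes of 0.63 to 1.74. Gm27231 rose most, to 4.33, 4.98 and 5.19 FPKM in 4 h chromatin, against 1.12, 1.88 and 1.22 FPKM in 0 h chromatin (1.74 ± 0.20, adjusted p = 0.00037). Gm38308 had 2.28, 2.43 and 1.91 FPKM in 4 h chromatin and 1.02, 0.64 and 0.58 FPKM in 0 h chromatin (1.47 ± 0.23, adjusted p = 0.0016). Both were clear of overlap, and so were Gm27032 (0.99 ± 0.23, adjusted p = 0.010), Gm38300 (0.88 ± 0.22, adjusted p = 0.013) and Gm16092 (0.63 ± 0.15, adjusted p = 0.012). These 5 were past the threshold without each library in turn. Tmem74bos had 1.01, 1.14 and 0.46 FPKM in 4 h chromatin and 0.33, 0.22 and 0.45 FPKM in 0 h chromatin (1.12 ± 0.36, adjusted p = 0.038), and its lowest 4 h library was next to its highest 0 h library. Its call was lost without 0 h library 1, 0 h library 2, 4 h library 1 or 4 h library 2 (adjusted p up to 0.12). Gm42940 was called higher by 0.74 ± 0.24 (adjusted p = 0.038), a call lost without 0 h library 1, 0 h library 3, 4 h library 1 or 4 h library 2 (adjusted p up to 0.11). 3830432H09Rik was called higher by 0.72 ± 0.24 (adjusted p = 0.044), a call that held only without 4 h library 3 (adjusted p up to 0.14). Gm26513 was called higher by 0.69 ± 0.22 (adjusted p = 0.033), a call lost without any one of the 6 libraries (adjusted p up to 0.095).

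In whole cells the polyA-only lncRNAs were called about as often in either direction. Of 195 tested, 8 fell and 8 rose by limma over the 6 whole-cell libraries, and 41 had an unadjusted p under 0.05. Over all 1135 lncRNAs tested 20% were called, 7.05% lower and 13% higher, against 4.10% lower and 4.10% higher of the polyA-only lncRNAs. Their median log2 change was 0.09, and 0.10 for the others. Across all 267, the 4 h libraries were all below the 0 h libraries for 26 and all above for 31, where 13.6% of all lncRNAs were below and 20.9% above. The 16 calls became 5 to 10 when any one of the 6 libraries was left out, fewest without 4 h library 2, and Gm13261 and Gm38300 were the 2 that held each time.

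The genes that fell in whole cells also fell on chromatin, with 1 exception. Gm13261, the gene with 5 CCAAT in its promoter window, had 0.16, 0.11 and 0.07 FPKM in 4 h whole cells and 0.64, 0.36 and 1.08 FPKM in 0 h whole cells (-1.81 ± 0.38, adjusted p = 0.011). On chromatin it had 0.09, 0.26 and 0.31 FPKM at 4 h and 0.73, 0.77 and 1.13 FPKM at 0 h (-1.66 ± 0.34, adjusted p = 0.0057). Its 4 h and 0 h libraries were apart in both. Gm14286 had 0.10, 0.11 and 0.67 FPKM in 4 h whole cells and 0.89, 1.65 and 1.19 FPKM in 0 h whole cells (-2.04 ± 0.51, adjusted p = 0.025), a call lost without 0 h library 2, 0 h library 3, 4 h library 1 or 4 h library 2 (adjusted p up to 0.088). Arhgap33os had 0.04, 0.11 and 0.07 FPKM in 4 h whole cells and 0.31, 0.20 and 0.25 FPKM in 0 h whole cells (-1.04 ± 0.27, adjusted p = 0.028). On chromatin Arhgap33os fell by 1.22 ± 0.26 (adjusted p = 0.0062), and its whole-cell call was lost without 0 h library 1, 0 h library 3, 4 h library 1 or 4 h library 3 (adjusted p up to 0.11).

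Gm45769, Gm37637, Gm43071 and Gm37755 were the other 4 that fell in both. In whole cells Gm45769 fell by 1.38 ± 0.31 (adjusted p = 0.014), a call lost without 4 h library 2 (adjusted p = 0.056). Gm37637 (-1.23 ± 0.35, adjusted p = 0.036) held only without 0 h library 3, with an adjusted p of up to 0.12 without the others. Gm43071 (-1.12 ± 0.33, adjusted p = 0.044) held only without 0 h library 1, with up to 0.12 without the others. Gm37755 (-0.67 ± 0.18, adjusted p = 0.034) held only without 4 h library 3, again with up to 0.12. On chromatin the call of Gm37637 (-1.22 ± 0.40, adjusted p = 0.040) was lost without 0 h library 1, 0 h library 3, 4 h library 1 or 4 h library 3 (adjusted p up to 0.12), while those of Gm45769, Gm43071 and Gm37755 held each time. The exception was 2610028E06Rik, with 0.31, 0.22 and 0.27 FPKM in 4 h whole cells and 0.64, 0.80 and 0.56 FPKM in 0 h whole cells (-1.06 ± 0.28, adjusted p = 0.028), against a chromatin change of 0.20 ± 0.50 (adjusted p = 0.76). Its whole-cell call held only without 0 h library 3 (adjusted p up to 0.090 without the others).

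Rises in whole cells were mostly of genes whose chromatin level did not pass the test. Gm44256 rose to 4.43, 4.94 and 7.86 FPKM in 4 h whole cells, against 3.10, 1.40 and 0.77 FPKM in 0 h whole cells (1.81 ± 0.42, adjusted p = 0.018). Gm38300 had 1.62, 1.13 and 1.97 FPKM in 4 h whole cells and 0.30, 0.42 and 0.53 FPKM in 0 h whole cells (1.69 ± 0.29, adjusted p = 0.0045), and rose on chromatin too. Dhrs13os, opposite Phf12 and Dhrs13, had 0.48, 0.45 and 0.92 FPKM in 4 h whole cells and 0.15, 0.10 and 0.23 FPKM in 0 h whole cells (1.43 ± 0.35, adjusted p = 0.021). For each of these 3 genes every 4 h library was above every 0 h library. On chromatin Dhrs13os had 0.15, 0.16 and 0.28 FPKM at 4 h and 0.08, 0.12 and 0.35 FPKM at 0 h, which overlap. Calls were lost for Gm44256 without 0 h library 2, 4 h library 2 or 4 h library 3 (adjusted p up to 0.057), and for Dhrs13os without 0 h library 1, 0 h library 2 or 4 h library 3 (up to 0.075).

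The other 5 rises in whole cells were Gm44243 (1.65 ± 0.39, adjusted p = 0.020), Gm17092 (1.25 ± 0.32, adjusted p = 0.025), Gm45051 (1.24 ± 0.29, adjusted p = 0.019), Gm27032 (1.22 ± 0.36, adjusted p = 0.045) and Gm37166 (1.19 ± 0.36, adjusted p = 0.045). Gm17092, one of the 10 highest at 0 h, had 2.61, 3.03 and 3.32 FPKM in 4 h whole cells and 1.73, 0.65 and 1.47 FPKM in 0 h whole cells, and its groups were apart. Its call was lost without any 4 h library (adjusted p up to 0.078). Gm44243 was lost without 0 h library 1, 0 h library 3, 4 h library 1 or 4 h library 2 (up to 0.071), and Gm45051 without 0 h library 2, 4 h library 2 or 4 h library 3 (up to 0.058). Gm27032, which also rose on chromatin, held only without 4 h library 2 (up to 0.11 without the others). Gm37166 held only without 0 h library 3 (up to 0.15 without the others), and both were lost with libraries centred on their medians.

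**Figure D4:**
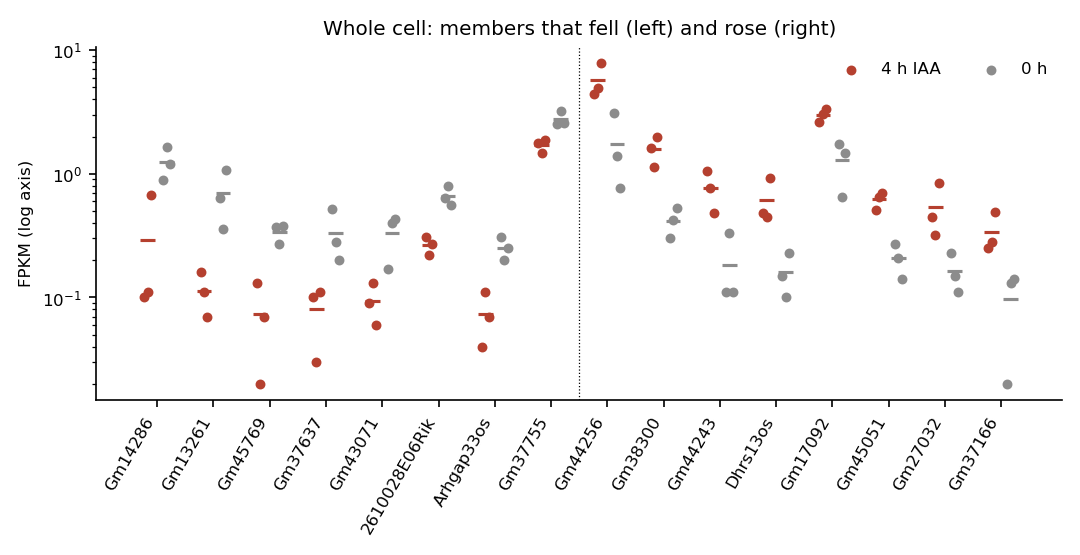
FPKM (log axis) in each whole-cell library at 4 h of IAA (red) and at 0 h (grey) for the 8 polyA-only lncRNAs that fell, left of the dotted line, and the 8 that rose, right of it. Short bars are means of 3 libraries. Gm38300 lies between 1.13 and 1.97 FPKM at 4 h and between 0.30 and 0.53 FPKM at 0 h.

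Taking chromatin and whole cells side by side, 185 polyA-only lncRNAs were tested in both. Of these, 7 fell in both and 2 rose in both, and none was called in opposite directions. On chromatin 39 fell and 6 rose with no call in whole cells, while 6 rose and 1 fell in whole cells with no call on chromatin, and 124 had no call in either. Joint calls over all lncRNAs were not counted, so these counts cannot be read as particular to the polyA-only lncRNAs. A call in one and not in the other does not show that the changes differ, which was tested as the chromatin change minus the whole-cell change.

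**Figure D5:**
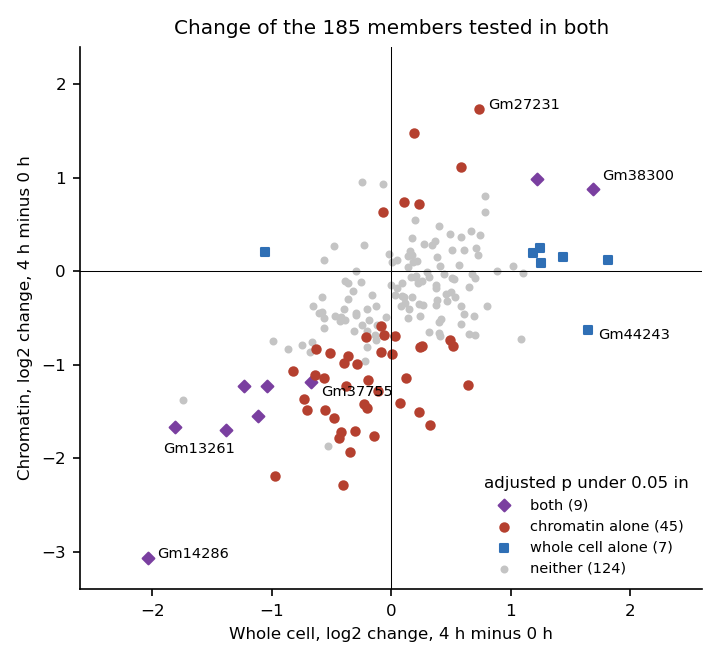
Log2 change at 4 h against 0 h in whole cells (horizontal axis) and on chromatin (vertical axis) of the 185 polyA-only lncRNAs tested in both, by which test had an adjusted p under 0.05. Gm14286 is the lowest point, at -3.06 on chromatin and -2.04 in whole cells, and Gm38300 is high in both.

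The test of that difference called 19 of 256 polyA-only lncRNAs, 18 towards whole cells and 1, Gm26513, towards chromatin. Over all 1234 lncRNAs tested 18.6% were called, 18.4% lower and 0.162% higher, against 7.03% and 0.391% of the polyA-only lncRNAs. Their median difference was -0.38, and -0.50 for the others. With libraries centred on their medians the median became 0.19 and no polyA-only lncRNA was called towards whole cells, with 2 called towards chromatin. A real difference shared by most lncRNAs would be removed by centring as well. At an unadjusted p under 0.05 there were 54. The 19 calls became 7 to 12 without chromatin 0 h library 1, 2 or 3, chromatin 4 h library 1 or 2, or whole-cell 4 h library 1 or 3, fewest (7) without chromatin 0 h library 2 or whole-cell 4 h library 1.

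Of the 18 that shifted away from chromatin, 13 fell on chromatin, 1 (Gm44243) rose in whole cells and 4 passed neither of those tests. Among the 13, AA543186 and 9430064I24Rik entered the chromatin test through 0 h libraries alone. The same split was not counted over all lncRNAs, so it cannot be read as particular to these genes. Gm44243 had the largest shift (-2.27 ± 0.48, adjusted p = 0.0070), the one of the 18 that held without each of the 12 libraries, though not with libraries centred on their medians (adjusted p = 0.12). It had 0.48, 0.76 and 0.51 FPKM in 4 h chromatin and 0.75, 0.94 and 1.16 FPKM in 0 h chromatin, with 1.06, 0.77 and 0.48 FPKM in 4 h whole cells and 0.11, 0.33 and 0.11 FPKM in 0 h whole cells. Its chromatin groups overlapped by 0.01 FPKM and its whole-cell groups were apart. 2510016D11Rik (-1.85 ± 0.49, adjusted p = 0.022) had 0.42, 0.30 and 0.32 FPKM in 4 h chromatin and 0.87, 0.78 and 1.18 FPKM in 0 h chromatin, with 0.93, 0.41 and 1.13 FPKM in 4 h whole cells and 0.57, 0.59 and 0.27 FPKM in 0 h whole cells. It was apart on chromatin and overlapped in whole cells, and its shift was lost without chromatin 0 h library 3 or whole-cell 4 h library 1 (adjusted p up to 0.052). Gm26513 had 0.29, 0.24 and 0.30 FPKM in 4 h chromatin and 0.14, 0.14 and 0.12 FPKM in 0 h chromatin, and 0.05 to 0.09 FPKM in every whole-cell library, below the 0.1 FPKM added before taking logs (0.86 ± 0.24, adjusted p = 0.028). Its shift was lost without any chromatin 0 h library, whole-cell 0 h library 1 or 3, chromatin 4 h library 1 or whole-cell 4 h library 1 (adjusted p up to 0.060).

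Symbol classes gave no sharp division. On chromatin 44 of 180 predicted genes fell and 7 rose, and 9 of 45 RIKEN clones fell and 1 rose, with median log2 changes of -0.34 and -0.40. Among the other lncRNAs 239 of 622 predicted genes fell and 82 rose, with a median of -0.32. Of their RIKEN clones 88 of 220 fell and 10 rose, with a median of -0.48. Of the 8 with symbols ending in os, Arhgap33os and N4bp2os fell and Tmem74bos rose, where 10 of 25 such others fell and 1 rose. The class is one of names, and in RefSeq neither Arhgap33os nor Tmem74bos overlaps a protein-coding gene. N4bp2os had 0.09, 0.14 and 0.14 FPKM in 4 h chromatin and 0.29, 0.25 and 0.24 FPKM in 0 h chromatin (-0.69 ± 0.23, adjusted p = 0.039), with its groups apart, and its call held only without 4 h library 3 (adjusted p up to 0.12 without the others). Trpc5os, which overlaps the cation channel gene Trpc5 on the other strand, had 1.05, 1.24 and 0.98 FPKM in 4 h chromatin and 1.00, 1.34 and 1.25 FPKM in 0 h chromatin, which overlap. Tmem51os1, Tomm6os, Phtf1os and Dhrs13os had no call on chromatin, at means of 0.103 to 0.473 FPKM in 4 h chromatin and 0.107 to 0.363 FPKM in 0 h chromatin.

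Platr13 had 2.45, 0.40 and 2.16 FPKM in 4 h chromatin and 4.96, 3.23 and 2.87 FPKM in 0 h chromatin, and 0.15, 0.83 and 2.71 FPKM in 4 h whole cells and 1.95, 2.18 and 5.09 FPKM in 0 h whole cells. Its 4 h libraries spread widely, and neither comparison passed (adjusted p = 0.094 on chromatin and 0.14 in whole cells). Flicr was too low for a test on chromatin and had 0.34, 0.18 and 0.54 FPKM in 4 h whole cells and 0.40, 0.29 and 0.68 FPKM in 0 h whole cells, which overlap. D7Ertd128e had means of 1.08 FPKM in 4 h chromatin and 1.36 FPKM in 0 h chromatin, with no call on chromatin or in whole cells. Gpr137b-ps was under 0.25 FPKM in all 12 libraries, too low for a test on chromatin, and did not pass in whole cells (adjusted p = 0.81). AA543186 fell on chromatin, with 0.03, 0.03 and 0.08 FPKM in 4 h chromatin and 0.30, 0.24 and 0.14 FPKM in 0 h chromatin (-1.14 ± 0.29, adjusted p = 0.013), and so reached 0.1 FPKM there at 0 h alone. BC026762 (-0.67 ± 0.24) had an adjusted p of 0.0502 on chromatin and did not pass, and AI504432 did not pass on chromatin (adjusted p = 0.28) and was too low for a test in whole cells, at means of 0.0933 FPKM in 4 h chromatin and 0.140 FPKM in 0 h chromatin. Of the 6 without a symbol, 4 were tested on chromatin and 3 in whole cells and none of these passed, while 2 were too low for either test. The 6 had means of at most 0.763 FPKM in any group.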

How the data were processed

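PolyA RNA of the SNRNP70 degron line was read in 12 libraries, 3 for each of 4 groups. The labels' protocols name polyA isolation from fractions mixed with ERCC spike-in RNA and a directional kit, and the submitters' processing notes name CASAVA, TopHat, Cufflinks and mm10. The authors deposited FPKM, which the file headers call spike-in normalized for chromatin and not for whole cells. Values were rounded to 2 decimals, so reads and depth could not be recovered, precision rests on the spread between libraries, and values near 0.01 FPKM are coarse. Counting by strand is not given in the sources used here.

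Of 1248 entries 2 that share an identifier were left out. Members are identifiers, without version, of the polyA table that neither the AID total table (1280 identifiers) nor the SLAM-seq table (492) holds. Rab26os, which the rule sets aside, is in both, so none was removed by name. None of the 267 is among the 1280 identifiers of the antisense oligonucleotide table, which are those of the AID total table. The members, lists and tests were chosen with earlier results of these data known. PolyA columns were compared as log2(FPKM + 0.1) in limma 3.58.1 (R 4.3.3, eBayes with trend), with Benjamini-Hochberg adjustment over the whole polyA table and a threshold of 0.05, for lncRNAs that reached 0.1 FPKM in 3 or more libraries of the comparison. A log2 change on this scale understates the change of low genes. The change on chromatin and in whole cells used 6 libraries each, and the shift and the 0 h difference all 12. The fit was tested on simulated data before use.

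Genes were named by a rule: at most the 8 largest calls in each direction per comparison, the 10 highest at 0 h in chromatin and in whole cells, the 5 furthest towards each at 0 h with at least 1 FPKM, and every member with neither a Gm nor a Rik symbol. Promoters and positions are RefSeq GRCm38.p6, matched by symbol. Alternatives were pseudocounts of 0.01 and 1 FPKM, no filter, a mean of at least 0.5 FPKM, libraries centred on their medians, eBayes without trend, a replicate block, 1 fit of 12 libraries and leaving out each library. Total RNA, SLAM-seq and peak files served for identifiers or were not used here. Tables and figures were made in Python 3.11.15 with pandas 2.3.3 and matplotlib 3.10.9.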

Additional observations from a re-analysis of the deposited data

Results flagged for a closer look

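For 19 polyA-only lncRNAs the response to IAA on chromatin differed from that in whole cells by the test of the difference itself (limma, adjusted p under 0.05 over the whole table, 3 libraries in each of 4 groups). The log2 difference, chromatin change minus whole-cell change, was -2.27 for Gm44243, -1.85 for 2510016D11Rik, -1.74 for Gm20507, -1.62 for Gm20324, -1.49 for Gm43340 and -1.41 for B230317F23Rik. It was -1.39 for Gm42755, -1.39 for Gm29514, -1.35 for Gm37090, -1.32 for BC026762, -1.30 for Gm26736 and -1.26 for AA543186. Smaller differences were -1.23 for Gm2822, -1.17 for Gm44250, -1.16 for 9430064I24Rik, -1.15 for 2700046G09Rik, -1.06 for A730036I17Rik and -0.93 for Gm20559. Gm26513 alone was positive, at 0.86. Gm44243 was past the threshold without each of the 12 libraries, and the other 18 were lost without at least 1. With libraries centred on their medians, 1 of the 19 calls remained, that of Gm26513 (1.44, adjusted p = 0.0072), and all 18 towards whole cells were lost, Gm44243 among them (-1.70, adjusted p = 0.12). Such centring takes out any change shared by most lncRNAs, real or not. The whole-cell values of Gm42755, 9430064I24Rik and Gm26513 were too low for a test of their own.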

How the results depend on the processing

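Calls among polyA-only lncRNAs were 65 on chromatin, 16 in whole cells, 19 for the shift and 155 for chromatin against whole cells at 0 h. A filter on a mean of 0.5 FPKM, which tests fewer genes, gave 42, 5, 9 and 42. Centring libraries on their medians gave 44 on chromatin, 14 in whole cells, 2 for the shift and 88 at 0 h. It turned the median log2 value of the set to 0.11 on chromatin, 0.19 for the shift and -0.13 at 0 h. Any change shared by most lncRNAs is taken out by it, so it cannot tell a real shared change from scaling. The median in whole cells became -0.082 with the filter on a mean of 0.5 FPKM. A pseudocount of 1 FPKM gave 39 shifts, which include all 19; the cause was not tested. Leaving out 1 library gave 44 to 68 calls on chromatin, 5 to 10 in whole cells, 7 to 22 for the shift and 136 to 160 at 0 h, where fewer samples remain. At 0 h, 5830418P13Rik (-0.49), Gm16092 (-0.53) and Platr13 (-0.63) changed sign on centring, and Gm17092 did so without chromatin 0 h replicate 1 (0.03), chromatin 0 h replicate 2 (0.07), whole cell 0 h replicate 1 (0.19) or whole cell 0 h replicate 3 (0.08), with a range of -0.45 to 0.19 over the libraries left out. Of 71 calls of named genes, 29 held under every alternative and 24 were lost on centring. Replicate numbers were not used as pairs in the main tests. Deviations of same-number libraries correlated at -0.090 to 0.065, which shows no pairing in the values but cannot exclude a shared culture. The replicate block gave 60, 13, 19 and 154 calls, of which 56, 11, 17 and 151 were among the main calls. Depth is unknown, so values near 0.1 FPKM limit what can be detected.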
